A study of Mus musculus with 6 samples.

Results

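Pericentromeric heterochromatin is the compact, transcriptionally silent chromatin beside the centromeres of mouse chromosomes, where it gathers in nuclei into dense chromocentres built on tandem satellite repeats. Its silencing rests on methylation of histone H3 at lysine 9, on proteins that read that mark, and on DNA methylation. Histone methyltransferases write the mark, HP1 proteins bind it and hold further enzymes there, and DNA methyltransferases with their cofactors copy CpG methylation to newly made strands.

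The 10 genes described here encode factors of this machinery. They were selected on what their proteins do, and not on their own values, but the list was drawn up after a difference in satellite transcripts between transgenic and wild type skin had been measured in these libraries. *Suv39h1*, *Suv39h2* and *Setdb1* encode H3 lysine 9 methyltransferases. *Cbx1*, *Cbx3* and *Cbx5* encode the HP1 proteins HP1β, HP1γ and HP1α. *Trim28* encodes the corepressor KAP1, which brings SETDB1 to its targets through zinc finger proteins. *Dnmt1* and *Dnmt3a* encode the maintenance methyltransferase and a de novo methyltransferase, and *Uhrf1* encodes the protein that recruits DNMT1 to hemimethylated DNA. They were found by Ensembl identifier in GENCODE M21 (GRCm38), and are 10 of the 26579 genes in the count table. Levels are given as CPM, counts scaled to library size with TMM factors. All 10 passed the filter on low counts (1 CPM or more in 3 or more libraries), which left 15102 genes for testing.

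RNA-Seq was done on whole skin punch biopsies of the dorsal neck from 3 wild type (WT) and 3 YAP2-5SA-∆C transgenic (TG) female littermates at 33 days of age. TG skin carries a transgene for a mutant, mildly active form of the transcriptional coactivator YAP. Expression is directed to the basal layer of the epidermis, 1 cell type of a tissue that also holds dermis, fat, muscle and hair follicles. Each library was taken as 1 animal, WT1 to WT3 and TG1 to TG3, and no other treatment is given for either group. The comparison asks whether the RNA of the silencing factors differed between the genotypes, and whether it followed the level of satellite transcripts across the libraries.

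Libraries held 11225705 to 19505036 counts on genes, the lowest being WT3. The share of counts on 1 unnamed gene (ENSMUSG00000045999) was 5.27% in WT3 and between 0.0634% and 0.288% elsewhere. *Yap1* lay between 125 and 142 CPM in WT and between 130 and 144 CPM in TG skin, and the sources do not say if it also caught transgene reads. The keratinocyte markers *Krt14*, *Krt5*, *Krt1* and *Krt10* were all above 700 CPM in every library, which fits the labelled tissue.

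The satellite transcripts set beside the silencing factors are *Gm10800*, *Gm11168* and *Gm26870*. They were named from an earlier look at these libraries because they were higher in TG skin, so their levels are given as a description, with no test. *Gm10800* (ENSMUSG00000075014) lies at chr2:98666547-98667301 on the minus strand. *Gm11168* (chr9:3003346-3006948, plus strand) and the lincRNA *Gm26870* (chr9:3000282-3038313, minus strand) overlap on opposite strands. They belong to a family of 13 genes that each share at least 20 words of 24 bases with *Gm10800*, whereas every other GENCODE M21 gene shared 0 such words. The 30 bases that open the *Gm10800* transcript are shown because they mark the family, and 12 of its 13 genes hold them on 1 strand or the other.
Gm10800, transcript bases from position 1: atgtttctcattttccatgattttcagttt

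*Gm10800* had 55.2, 59.1 and 105 CPM in WT1, WT2 and WT3, and 411, 293 and 412 CPM in TG1, TG2 and TG3. *Gm11168* had 19.6, 20.5 and 38.0 CPM in WT and 175, 118 and 215 CPM in TG skin. *Gm26870* had 690, 683 and 1335 CPM in WT and 2843, 2146 and 2980 CPM in TG skin. For each of these transcripts every TG library was above every WT library, WT3 was the highest of the WT libraries and TG2 the lowest of the TG libraries.

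The 3 transcripts summed to 764, 762 and 1479 CPM in WT skin (mean 1002 ± 413, SD, n = 3). In TG skin they summed to 3429, 2557 and 3608 CPM (mean 3198 ± 562, SD, n = 3). The ratio of the means was 3.19, and the lowest TG library was 1.73 times the highest WT library. WT3 was 1.93 times the higher of the other two WT libraries, and WT3 is also the shallowest library. *Gm26870* supplied most of the sum, and without it the ratio was 5.46. All 13 genes of the family had a higher mean in TG skin, with ratios from 2.94 to 7.76. The other 10 genes together were at 12.1, 13.4 and 25.0 CPM in WT and at 97.1, 67.1 and 86.8 CPM in TG skin, with WT3 again the highest WT and TG2 the lowest TG library.

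These genes share stretches of sequence, and the counts are of uniquely mapped reads. Of the windows of 75 bases (the read length) in the longest transcript, 10.2% for *Gm10800*, 59.2% for *Gm11168* and 57.8% for *Gm26870* also occurred in another gene. The counts of single family members are therefore uncertain. Satellite RNA outside annotated genes was not counted.

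**Figure D1:**
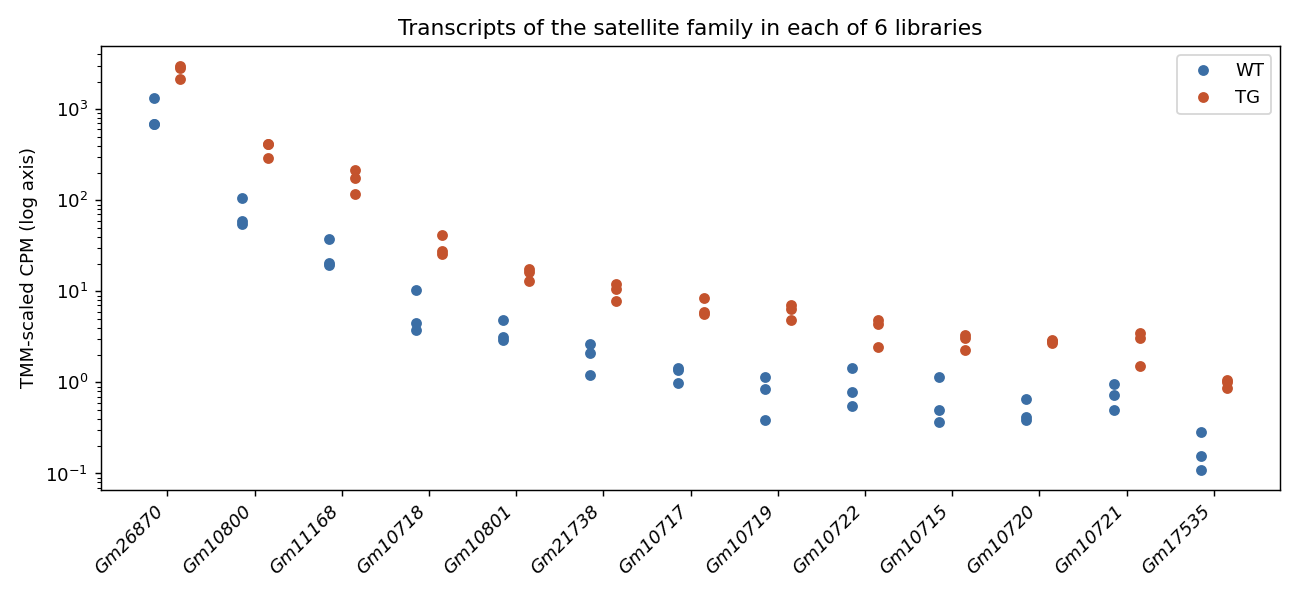
TMM-scaled CPM (log axis) of the 13 genes of the satellite family in each library, with WT libraries in blue and TG libraries in orange. In each of the 13 genes all 3 TG points lie above all 3 WT points, an order seen in 15.5% of all genes tested. The family was built from *Gm10800*, which was named for its higher level in TG skin, so its genes are not separate observations. *Gm26870* is the most abundant, at 683 to 1335 CPM in WT and 2146 to 2980 CPM in TG skin.

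None of the 10 silencing factors passed a false discovery rate (FDR) of 0.05 between TG and WT skin. With edgeR's quasi-likelihood test 0 of 10 were called, where 1.91% of all genes tested were (288 genes; 1.44% higher and 0.464% lower in TG skin). The count was also 0 of 10 with the likelihood-ratio test of edgeR (10.4% of all genes called), with voom (1.65%) and with DESeq2 (10.5%). At an unadjusted p of 0.05 the quasi-likelihood test passed 1 of 10, *Trim28*, against 26.3% of all genes (13.0% lower in TG skin, as *Trim28* was), and the likelihood-ratio test passed 0 of 10, against 3017 of all 15102 genes.

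Their log2 fold changes (TG over WT) ran from −0.22 to 0.12, 7 below 0 and 3 above it. The median was −0.12, against −0.01 over all genes tested, and the median size without sign was 0.12, against 0.16 over all genes. The 95% intervals of 9 of the 10 lay within 0.5 of 0 on the log2 scale. The outermost interval ends over the 10 genes were −0.52 and 0.31, which are changes of −30.4% and 24.1%. Larger changes thus lay outside every interval. The most variable gene differed 1.42-fold between its highest and lowest library and the least variable 1.15-fold, where the satellite sum differed by more between the genotype means than any of them did between any libraries. Counts of the 10 genes lay between 111 and 3872 in a library. These are levels in whole skin, in which fewer cells of a type and less RNA per cell cannot be told apart.

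**Figure D2:**
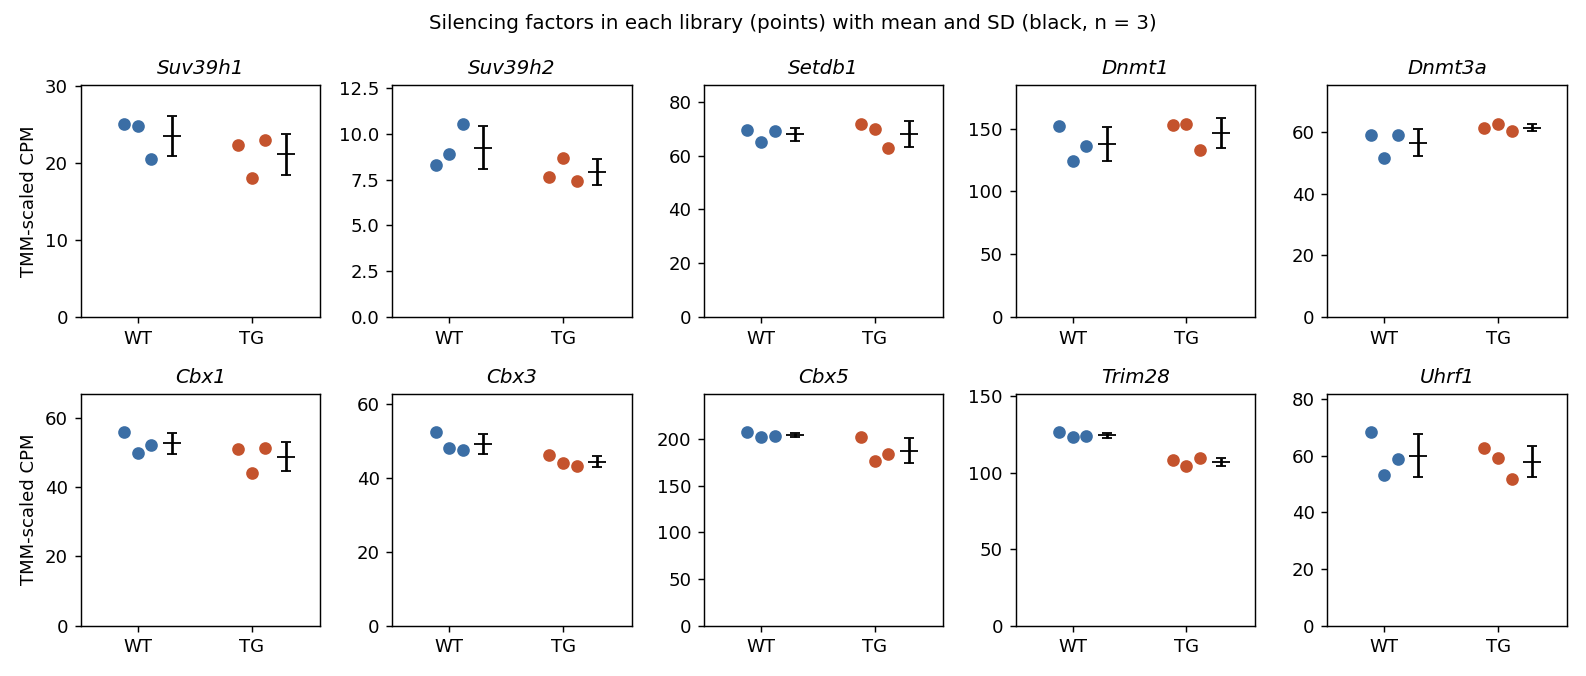
TMM-scaled CPM of each of the 10 silencing factors by genotype, each panel with its own axis from 0. Coloured points are the 3 WT (blue) and 3 TG (orange) libraries, and the black bars give the mean and SD (n = 3). The groups overlap in 6 genes, TG lies below WT in *Cbx3*, *Cbx5* and *Trim28*, and TG lies above WT in *Dnmt3a*.

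**Figure D3:**
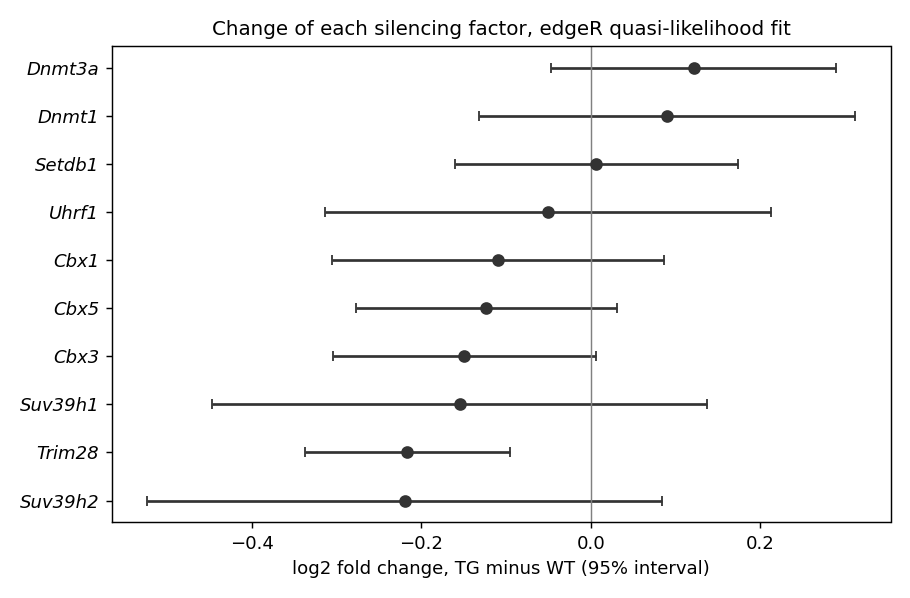
Log2 fold change of TG over WT skin for each silencing factor (points) with its 95% interval (bars) from edgeR's quasi-likelihood fit. Only the interval of *Trim28*, from −0.34 to −0.10, leaves out 0.

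Levels between genes were compared as CPM per kilobase of all annotated exons in WT skin. *Trim28* was the most abundant at 30.0, followed by *Cbx5* at 22.7 and *Dnmt1* at 18.6. *Uhrf1* was at 14.1, *Cbx1* at 12.3, *Setdb1* at 9.92 and *Cbx3* at 8.21. The Suv39 enzymes and the de novo methyltransferase were the scarcest, with *Suv39h1* at 4.46, *Dnmt3a* at 3.39 and *Suv39h2* at 2.10. In TG skin the order was the same, from 25.8 for *Trim28* to 1.80 for *Suv39h2*. The middle of the order depends on the length used. Per kilobase of the longest transcript, *Trim28* (38.4) remained first and *Suv39h1* (7.54), *Dnmt3a* (5.83) and *Suv39h2* (2.14) last, but *Dnmt1* (23.4), *Cbx5* (23.2) and *Cbx1* (22.2) were close together, and *Cbx3* (16.8) and *Uhrf1* (16.7) stood above *Setdb1* (12.0). No order is read from these neighbours.

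*Suv39h1* and *Suv39h2* encode the enzymes that trimethylate H3 lysine 9 at pericentromeric repeats. *Suv39h1* (chrX:8061171-8074760, minus strand) had 25.1, 24.8 and 20.5 CPM in WT and 22.4, 18.1 and 23.0 CPM in TG skin. The groups overlapped, with WT3 and TG2 the lowest libraries. Its log2 fold change was −0.15 (standard error 0.12, 95% interval −0.45 to 0.14, FDR 0.46 in edgeR's quasi-likelihood test). Of its 75-base windows 19.0% also lie in the antisense gene *Gm14820*, on which at most 1 count fell in any library.

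*Suv39h2* (chr2:3455815-3475031, minus strand) was the least abundant of the 10. It had 8.30, 8.90 and 10.6 CPM in WT and 7.62, 8.71 and 7.43 CPM in TG skin. WT3 stood highest and TG2 lay within the WT range, so the groups overlapped. The log2 fold change was −0.22 (standard error 0.13, 95% interval −0.52 to 0.08, FDR 0.318 in edgeR's quasi-likelihood test), and this was the only interval to pass beyond 0.5 in size. Its exons overlap those of *Dclre1c* and *Gm13184* on the opposite strand, with 3.13% of its windows shared. *Dclre1c* had 272 to 579 counts in a library and *Suv39h2* itself 111 to 170, and the strand setting of the counting was not given.

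*Setdb1* (chr3:95323525-95357202, minus strand) encodes the methyltransferase that KAP1 recruits. It had 69.5, 65.0 and 69.3 CPM in WT and 72.0, 70.0 and 62.8 CPM in TG skin. TG libraries were both the highest and the lowest of the 6. Between genotypes the log2 fold change was 0.01 (standard error 0.07, 95% interval −0.16 to 0.17, FDR 0.959 in edgeR's quasi-likelihood test), with 4.45% of its windows in other genes, mostly the lincRNA *Gm4349* (28 to 60 counts per library). It turned to −0.024 without WT2 and to −0.01 without TG1.

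*Trim28* (ENSMUSG00000005566, chr7:12999114-13031035, plus strand) showed the clearest separation. It had 126, 123 and 124 CPM in WT (mean 125 ± 1.64, SD, n = 3) and 108, 104 and 109 CPM in TG skin (mean 107 ± 2.73, SD, n = 3). All TG libraries lay below all WT libraries, and the spread within each group was small beside the distance between them. In the fit across all genes, the log2 fold change was −0.22 (standard error 0.05, 95% interval −0.34 to −0.10), with an unadjusted p of 0.00382 (edgeR, quasi-likelihood) and an FDR of 0.0641. By the other methods the FDR was 0.0640 with voom, 0.055 with DESeq2 and 0.392 with the likelihood-ratio test, so *Trim28* did not pass the threshold with any of the 4 tests. Leaving out any 1 library gave log2 fold changes between −0.23 and −0.18. None of its windows occurred in another gene.

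Among the HP1 genes, *Cbx5* (chr15:103191544-103239816, minus strand) had 207, 203 and 204 CPM in WT and 202, 177 and 185 CPM in TG skin. TG1 lay just under the lowest WT library, so the groups were apart by a narrow margin. Its log2 fold change was −0.12 (standard error 0.07, 95% interval −0.28 to 0.03, FDR 0.275 in edgeR's quasi-likelihood test).

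*Cbx3* (chr6:51470360-51483704, plus strand) had 52.3, 47.9 and 47.4 CPM in WT and 46.1, 43.9 and 43.2 CPM in TG skin. Every TG library was below every WT library. The log2 fold change was −0.15 (standard error 0.07, 95% interval −0.30 to 0.01, FDR 0.203 in edgeR's quasi-likelihood test). Of its windows 3.16% also occur in other genes, among them processed pseudogenes of *Cbx3*, on which 2 to 13 counts fell per library.

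*Cbx1* (chr11:96789127-96808640, plus strand) had 55.8, 49.9 and 52.3 CPM in WT and 51.1, 44.0 and 51.4 CPM in TG skin. The groups overlapped, and TG2 was the lowest library. Its log2 fold change was −0.11 (standard error 0.08, 95% interval −0.31 to 0.09, FDR 0.435 in edgeR's quasi-likelihood test).

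In all, 3 of the 10 genes had every TG library below every WT library (*Cbx3*, *Cbx5* and *Trim28*), an order seen in 18.2% of all genes tested, and 1 (*Dnmt3a*) had every TG library above every WT library, an order seen in 15.5%. With 10 genes, these shares are not a test of the list.

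*Dnmt1* (chr9:20907209-20959888, minus strand) had 152, 124 and 136 CPM in WT and 153, 154 and 133 CPM in TG skin. The groups overlapped, with TG1 and TG2 just above the highest WT library, TG3 inside the WT range and WT2 the lowest library. Between genotypes the log2 fold change was 0.09 (standard error 0.09, 95% interval −0.13 to 0.31, FDR 0.576 in edgeR's quasi-likelihood test).

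*Dnmt3a* (chr12:3806007-3914443, plus strand) had 58.9, 51.4 and 59.0 CPM in WT and 61.2, 62.7 and 60.2 CPM in TG skin. All TG libraries were above all WT libraries, although WT1 and WT3 were within a few CPM of them. In the fit across all genes, the log2 fold change was 0.12 (standard error 0.07, 95% interval −0.05 to 0.29, FDR 0.32 in edgeR's quasi-likelihood test). Its exons overlap the antisense gene *Dnmt3aos*.

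*Uhrf1* (chr17:56303321-56323486, plus strand) had 68.2, 53.0 and 58.7 CPM in WT and 62.6, 59.2 and 51.9 CPM in TG skin. The spread within WT was larger than the difference between the group means. The log2 fold change was −0.05 (standard error 0.11, 95% interval −0.31 to 0.21, FDR 0.805 in edgeR's quasi-likelihood test), and it turned to 0.058 without WT1 and to 0.02 without TG3. Its processed pseudogene *Gm5648*, which holds 11.3% of its windows, had at most 2 counts in a library.

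The relation of each gene to the satellite sum was then computed over the 6 libraries. The satellite transcripts were named for their difference between genotypes, so a gene that differs between genotypes tends to correlate with the sum. The 6 points also share their scaling to library size. The gap between the genotypes in the sum was 1078 CPM, against 714 CPM below WT3 and 872 CPM above TG2. The permutations below exchange libraries across genotypes, so no pooled r or its p separates a relation to the sum from the genotype difference. The correlations are therefore given beside those of all 15102 genes and beside the correlations of the deviations from each genotype's mean, with exact permutation tests over 720 pairings (two-sided) and adjustment over all genes.

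Of the 10 genes, 8 had a Pearson r below 0, where 53.1% of all genes did. Of the 8, *Setdb1* and *Uhrf1* had r above 0 when 1 library was left out (0.76 and 0.11 without TG3, and 0.094 and 0.22 without WT1; *Setdb1* was also at 0.015 without WT3). Their median r was −0.37, against −0.07 over all genes, whose quartiles were −0.54 and 0.44. *Trim28* had the lowest r at −0.87 (exact permutation p = 0.0889, adjusted p = 0.516), a value that 1.95% of all genes reached or went below. Its Spearman rho was −0.60 (exact permutation p = 0.242, adjusted p = 0.548).

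*Cbx3* followed with r = −0.81 (exact permutation p = 0.0444, adjusted p = 0.516) and rho = −0.89 (exact permutation p = 0.0333, adjusted p = 0.50). It was the only one of the 10 with an unadjusted p under 0.05, for both coefficients, against 6.81% of all genes for Pearson's and 4.81% for Spearman's. With CPM of the raw library total in place of TMM-scaled CPM, its r was −0.52 (exact permutation p = 0.301). After adjustment over all genes 0 of the 10, and 0 of the 15102 genes, passed 0.05. This says little, since 6 libraries allow no exact permutation p under 0.00139 for Pearson's r. For genes to pass at that p, 420 would have had to sit there (29 did). More genes would be needed at or below any larger p. For Spearman's rho the smallest p is 0.00278, with 839 genes needed at it and 56 there.

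*Dnmt3a* had the highest r at 0.67 (exact permutation p = 0.107, adjusted p = 0.516) with rho = 0.77 (exact permutation p = 0.103, adjusted p = 0.50). *Dnmt1*, the other gene above 0, had r = 0.24 (exact permutation p = 0.643, adjusted p = 0.841), which turned to −0.18 without WT2. The rest lay between. *Cbx5* and *Suv39h2* both had r = −0.59, *Suv39h1* −0.40, *Cbx1* −0.33, *Uhrf1* −0.26 and *Setdb1* −0.03, with exact permutation p-values from 0.204 to 0.933 and adjusted p-values from 0.564 to 0.973. Their rho values ran from −0.71 for *Suv39h2* to 0.09 for *Setdb1*, with exact permutation p-values from 0.136 to 0.919 and adjusted p-values from 0.50 to 0.971.

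Without TG1 and TG3, the 2 libraries farthest from the median of the satellite sum, r was −0.92 for *Trim28*, −0.86 for *Cbx3* and 0.76 for *Dnmt3a*. For *Suv39h1* it moved to −0.97, for *Cbx5* to −0.92 and for *Cbx1* to −0.82, whereas *Uhrf1* was at −0.11. It turned positive for *Suv39h2* (0.12) and for *Setdb1* (0.57), and was 0.52 for *Dnmt1*. These values rest on 4 libraries, of which TG2 is the only TG library.

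Within genotypes the picture differed. As deviations from the genotype means, 4 of the 10 kept the sign of their r. *Trim28* turned to 0.61, *Cbx1* to 0.62, *Cbx5* to 0.46, *Suv39h1* to 0.17 and *Suv39h2* to 0.084, while *Dnmt1* turned to −0.39. *Cbx3* kept its sign at −0.25, as did *Setdb1* at −0.21, *Uhrf1* at −0.24 and *Dnmt3a* at 0.08. In plain terms, WT3 had nearly double the satellite level of the other WT libraries with much the same *Trim28*, and TG2 had the lowest satellite level of the TG libraries together with their lowest *Trim28*. The pooled r of *Trim28* thus rested on the difference between the genotypes.

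**Figure D4:**
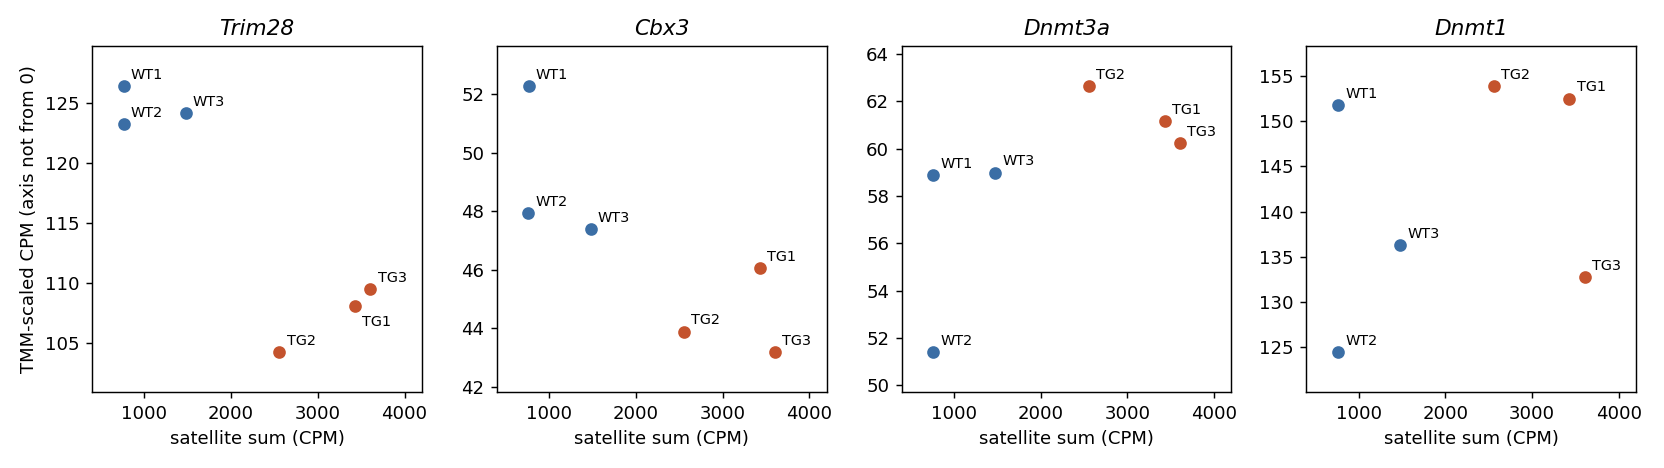
TMM-scaled CPM of *Trim28*, *Cbx3*, *Dnmt3a* and *Dnmt1* (vertical axes, not from 0) against the satellite sum in CPM (horizontal axes), 1 point per library, WT in blue and TG in orange. The WT libraries sit at 762 to 1479 and the TG libraries at 2557 to 3608 on the horizontal axis, and for *Trim28* the TG library with the lowest sum, TG2, is also the lowest in *Trim28* (104 CPM).

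**Figure D5:**
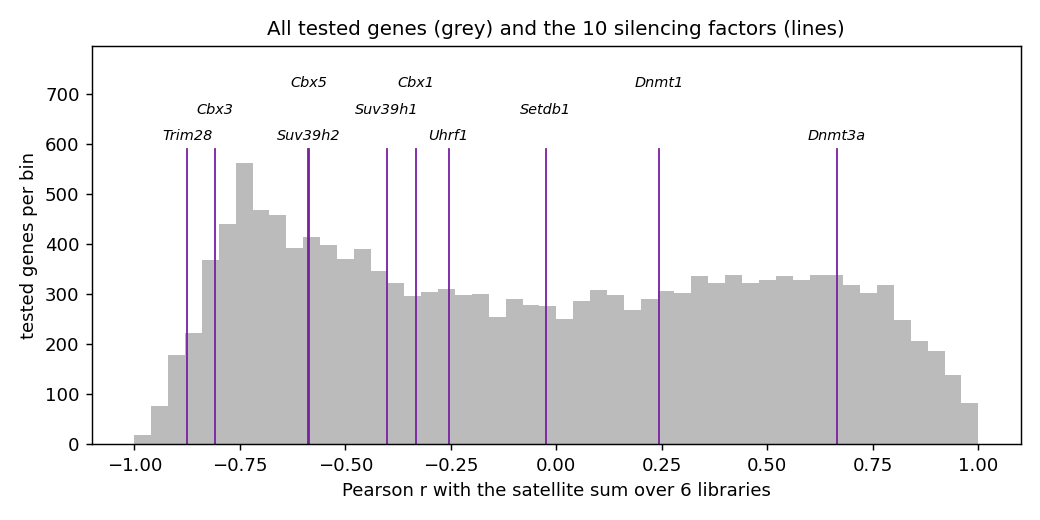
Pearson r with the satellite sum over 6 libraries, as a histogram over the 15102 genes tested (grey, genes per bin) with the 10 silencing factors as vertical lines. The factors run from −0.87 (*Trim28*) to 0.67 (*Dnmt3a*) and fall inside the wide spread of all genes.

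The silencing factors were also compared with each other over the 6 libraries, on log2 CPM, as a description of points that share library scaling. *Cbx3* and *Trim28* had r = 0.84, *Cbx3* and *Cbx5* 0.83, and *Cbx5* and *Trim28* 0.80. The values were similar for *Setdb1* with *Uhrf1* (0.82), *Dnmt1* with *Uhrf1* (0.81) and *Setdb1* with *Dnmt1* (0.80). In the deviations from genotype means, these last pairs had values of 0.84, 0.97 and 0.86, and the first pairs 0.37, 0.58 and 0.56. *Cbx3* was there closer to *Uhrf1* (0.86) and *Dnmt1* (0.76) than to *Trim28*. The highest pair in the deviations was *Cbx1* with *Trim28* (0.98, against 0.70 in the pooled values), and the lowest was *Suv39h1* with *Suv39h2* (−0.95, against −0.32). In the pooled values the lowest pair was *Dnmt3a* with *Trim28* at −0.64, which stood at 0.10 in the deviations.

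*Dnmt1* and *Uhrf1* act together at replication, and the genes whose log2 CPM followed each of them best over the 6 libraries were looked up among all genes tested. For *Dnmt1* they were *Cercam* (r = 0.996), *Ptch1* (0.994), *Zfp395* (0.992), *Asxl1* (0.990) and *Gli1* (0.985). *Ptch1* encodes the Hedgehog receptor and *Gli1* a transcription factor of that pathway. *Ptch1* had 83.3, 56.0 and 68.1 CPM in WT and 83.8, 86.4 and 60.8 CPM in TG skin, so WT2 and TG3 were the low libraries, as for *Dnmt1*. For *Uhrf1* the closest were *Cuedc2* (0.997), *Gm9989* (0.985), *Tldc1* (0.984), *Srp68* (0.978) and *Pogz* (0.976). These are the highest of 15102 values over 6 libraries, so their size is fixed by the search.

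E2F transcription factors control many genes of DNA replication. The promoters of the 10 genes (250 bases before to 50 after each RefSeq start, GRCm38.p6) were searched on both strands for TTTCCCGC, TTTCGCGC, TTTGCCGC and TTTGGCGC. All 10 genes were in the promoter table, and 4 of the 10 held such a word at any start, as did 2.60% of all 27025 genes and 2.26% of all 32851 promoters in it. *Suv39h1*, *Cbx3* and *Uhrf1* had 2 starts and *Dnmt1* 3, and genes with more starts had more sequence searched. *Cbx5* (2 starts) and *Dnmt3a* (3 starts) held no word. The matches are printed to show the words that were counted. Their relation to the levels of these genes was not tested. Each line gives the RefSeq strand of the gene, with the matched word (or its reverse complement) in capitals. Its first base is counted from the start site.
Suv39h1, chrX:8074407-8074436, minus strand, word at −64: ggaaggccggcGCGGCAAAcgtgggggccg
Dnmt1, chr9:20952824-20952853, minus strand, word at −219: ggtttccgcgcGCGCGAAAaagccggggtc
Dnmt1, chr9:20952574-20952601, minus strand, word at 34: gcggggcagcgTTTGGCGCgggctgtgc
Cbx3, chr6:51470437-51470466, plus strand, word at −168: tggagccccgcTTTGGCGCgctccgagacg
Uhrf1, chr17:56304117-56304146, plus strand, word at −185: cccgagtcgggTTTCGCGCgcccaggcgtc
A match is a word in the sequence and not a mapped binding site.

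Genes that work with the silencing factors were counted from lists by function. Of 65 such genes, 61 passed the filter on low counts (*Dnmt3l*, *Kdm4d*, *Hmga2* and *Pax9* did not). Of the 61, 0 passed the FDR threshold with the quasi-likelihood test, the likelihood-ratio test, voom or DESeq2, and 6 had an unadjusted quasi-likelihood p under 0.05, against 26.3% of all genes, which is also the background of the counts at that p in each list.

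Among 24 heterochromatin partners, which include further methyltransferases, chromatin remodellers and histone chaperones, 0 were called, 3 of the 24 (1 higher and 2 lower) had an unadjusted quasi-likelihood p under 0.05, and the median log2 fold change was −0.03. The chromatin remodeller *Smarca5* had 182, 176 and 178 CPM in WT and 160, 155 and 158 CPM in TG skin, a log2 fold change of −0.18 (FDR 0.082 in edgeR's quasi-likelihood test). Every TG library was below every WT library, as in 2 of the 24 genes and in 18.2% of all genes tested. *Smarcad1*, a remodeller that acts at replication, was at −0.20 (FDR 0.106), *Atf7ip*, the stabilising partner of SETDB1, at 0.16 (FDR 0.177), and *Prdm16* at 0.53 (FDR 0.199), all in the same quasi-likelihood test.

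Of 17 DNA methylation partners 16 were tested and 0 called (1 at an unadjusted quasi-likelihood p under 0.05), with a median log2 fold change of 0.03. *Dnmt3b*, the other de novo methyltransferase, had 4.73, 5.08 and 4.95 CPM in WT and 5.73, 6.88 and 5.93 CPM in TG skin, a log2 fold change of 0.33 (FDR 0.147 in edgeR's quasi-likelihood test). Every TG library was above every WT library, as in 2 of the 16 genes and in 15.5% of all genes tested. *Mbd3* was at 0.32 (FDR 0.199), *Zbtb4* at 0.16 (FDR 0.225) and *Mbd4* at −0.21 (FDR 0.232) in the quasi-likelihood test.

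The H3 lysine 9 demethylases, which remove the mark, had 10 of 11 genes tested, 0 called, 0 at an unadjusted quasi-likelihood p under 0.05 and a median log2 fold change of 0.01. The 4 with the lowest p were *Jmjd1c* at 0.13, *Kdm1a* at −0.13, *Kdm4c* at −0.08 and *Kdm7a* at −0.06. Of 13 chromocentre and nuclear envelope proteins 11 were tested, 0 were called (2 at an unadjusted quasi-likelihood p under 0.05) and the median was −0.05. The lamin B receptor *Lbr*, which tethers heterochromatin to the nuclear envelope, had 132, 129 and 126 CPM in WT and 107, 79.2 and 112 CPM in TG skin, a log2 fold change of −0.37 (FDR 0.126 in edgeR's quasi-likelihood test). *Sirt1* was at −0.19 (FDR 0.154), *Cenpb*, which encodes a centromere protein, at 0.19 (FDR 0.204) and *Lmna* at 0.31 (FDR 0.226) in the same test.

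*Dnmt1*, *Uhrf1* and *Suv39h1* are known to be higher in dividing cells, so a cell cycle list was set beside them. All 27 of its genes were tested, 0 were called by any of the 4 tests, 2 had an unadjusted quasi-likelihood p under 0.05 (26.3% of all genes did), and the median log2 fold change was −0.05. The summed level was 1777 to 1959 CPM in WT and 1665 to 1924 CPM in TG skin, so the groups overlapped. The genes with the lowest p were *E2f1* at 0.38 (FDR 0.117), *E2f2* at −0.23 (FDR 0.146), *Rrm2* at 0.21 (FDR 0.196) and *Ccnb1* at −0.20 (FDR 0.247) in edgeR's quasi-likelihood test.

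The summed levels of several cell type marker lists differed between the genotypes in these biopsies without overlap, and their part in the values of the silencing factors was not tested. The 15 hair matrix and shaft markers, which mark fast-dividing follicle cells and their products, summed to 14179 to 17968 CPM in WT and 1550 to 9447 CPM in TG skin, and 14 of the 15 had every TG library below every WT library, against 18.2% of all genes. TG2 held the lowest sum, and among the TG libraries it was the lowest for *Trim28*, *Cbx1*, *Cbx5* and *Suv39h1*, the highest for *Dnmt1*, *Dnmt3a* and *Suv39h2*, and the middle one for *Setdb1*, *Cbx3* and *Uhrf1*. None of the hair markers passed the quasi-likelihood FDR, while 13 of 15 passed in the likelihood-ratio test, 2 in DESeq2 and 0 with voom.

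Basal keratinocyte markers summed to 3593 to 4358 CPM in WT and 5903 to 7540 CPM in TG skin, with *Krt14* the 1 of 7 called higher (log2 fold change 0.95, FDR 0.03 in edgeR's quasi-likelihood test; 1 with voom, 3 with the likelihood-ratio test and 5 with DESeq2). Suprabasal keratinocyte markers were at 4081 to 5049 and 5531 to 10165 CPM, with 0 of 5 called by the quasi-likelihood test and voom, 2 by the likelihood-ratio test and 3 by DESeq2. Macrophage markers were at 313 to 361 and 439 to 502 CPM, and melanocyte markers at 370 to 431 and 138 to 236 CPM. The quasi-likelihood test and voom each called 2 of 5 macrophage markers higher and 2 of 4 melanocyte markers lower, where the quasi-likelihood test called 1.44% of all genes higher and 0.464% lower. The likelihood-ratio test called 3 and 4 of them, and DESeq2 4 and 4. These quasi-likelihood calls and that of *Krt14* were lost without WT2, WT3 or TG3 and with the replicate block, where the test called 0 genes in all. In none of these lists did the groups overlap.

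Fibroblast markers were at 8895 to 12083 CPM in WT and 11508 to 15088 CPM in TG skin, and T cell markers at 6.59 to 9.24 and 8.23 to 11.1 CPM. Endothelial markers were at 86.6 to 95.1 and 101 to 122 CPM, without overlap. Skeletal muscle markers varied widely within the groups, at 1330 to 6486 and 1275 to 3293 CPM, and adipocyte markers lay at 622 to 869 and 544 to 901 CPM. In these 5 lists the quasi-likelihood test and voom called 0 genes, the likelihood-ratio test 1 (a T cell marker) and DESeq2 2 (fibroblast markers). Adipocyte and muscle markers had 0 genes at an unadjusted quasi-likelihood p under 0.05, and none of the cell type markers was at 0 in any library.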

How the data were processed

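Per the labels and the study's methods, the authors mapped paired-end reads of 75 bases to GRCm38 with Tophat2 and Bowtie2 2.1.0 and HTSeq-count gave the number of uniquely mapped reads on each gene. The submitters' processing notes give Tophat2 version 2.0.12, which differs from the version in the study's methods. The deposited values are raw counts per Ensembl gene. The labels name a stranded total RNA kit for libraries described as mRNA, and the annotation release and strand setting of the counting were not given in the sources used here, so antisense and overlapping genes are uncertain.

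Here, counts were scaled with TMM, the filter was 1 CPM or more in 3 or more libraries (15102 genes), and genotype was tested with edgeR 4.0.16 (glmQLFit, glmQLFTest, R 4.3.3), with Benjamini-Hochberg adjustment over all genes and a threshold of 0.05. CPM are TMM-scaled. The likelihood-ratio test of edgeR with common then tagwise dispersions, voom (limma 3.58.1) and DESeq2 1.42.0 were alternatives. Standard errors are the size of the log2 fold change over the square root of F. The quasi-likelihood test, the likelihood-ratio test, voom and DESeq2 were each run on simulated counts at the main settings. The planted changes were larger than those of the silencing factors, so recovery at their sizes was not covered. The other alternatives were not simulated. Library totals of 11225705 to 19505036 counts and 3 animals per group set the precision, and p-values measure the spread between these animals.

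Genes were named with GENCODE M21, in which 558 of 26579 identifiers are absent. The 10 silencing factors, the satellite transcripts and all gene lists were chosen with earlier results of these data known. The named genes are the 10 factors, the 3 satellite transcripts, the 4 genes with the lowest p-value in each pathway list and the cell cycle list, at most the 3 most abundant genes of a cell type list, and the 5 genes most correlated with *Dnmt1* and *Uhrf1*. Promoters are from RefSeq (GRCm38.p6). Correlations used CPM, and 0 of 10 also passed when adjusted over the 10 alone. The comparison of protein sequences was not done here. Alternatives also took in other scalings and filters, a block for replicate number and the omission of each library in turn.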

Additional observations from a re-analysis of the deposited data

How the results depend on the processing

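Under each of 14 alternatives 0 of the 10 silencing factors and 0 of the listed partner and cell cycle genes were called. With the replicate block and without WT2, WT3 or TG3, 0 genes were called in all, so those outcomes carry no information on the listed genes. No correlation passed after adjustment over the 10 genes, but with 5 libraries the smallest exact permutation p is 0.00833, so this is no sign of stability. Of 140 alternative log2 fold changes of the 10 genes, 136 kept their direction. *Uhrf1* moved to 0.058 without WT1 and 0.02 without TG3 (range −0.13 to 0.058 when each library was left out), and *Setdb1* to −0.024 without WT2 and −0.01 without TG1 (range −0.024 to 0.065). The other ranges were −0.23 to −0.04 for *Suv39h1*, −0.15 to −0.02 for *Cbx1* and −0.16 to −0.06 for *Cbx5* (each nearest to 0 without TG2), −0.29 to −0.11 for *Suv39h2* (nearest without WT3), 0.02 to 0.17 for *Dnmt1* and 0.06 to 0.16 for *Dnmt3a* (nearest without WT2), −0.17 to −0.10 for *Cbx3* (nearest without WT1) and −0.23 to −0.18 for *Trim28*. Over all genes, the 288 calls became 497 without the filter on low counts, 1568 with the likelihood-ratio test and 1590 with DESeq2, and ranged from 0 (without WT2, WT3 or TG3, with 2726, 2844 and 3691 genes at an unadjusted p under 0.05 in edgeR's quasi-likelihood test) to 817 (without TG2) when a library was left out. Of these calls 218 of 288 were higher in TG skin, against 833 of 1568, 959 of 1590 and, without TG2, 408 of 817. The sources used here do not say whether the replicate numbers pair animals. Deviations from the genotype means correlated at −0.33, −0.23 and −0.05 for the same numbers and at −0.07 to 0.27 for different numbers, which cannot settle it. The replicate block gave 0 calls in edgeR's quasi-likelihood test, with 2949 genes at an unadjusted p under 0.05. Of 130 alternative correlations, 116 kept their sign. *Setdb1* turned to 0.037 on the log2 scale and 0.13 with raw library totals (where *Cbx3* was at −0.52, *Cbx5* −0.35, *Suv39h1* −0.26, *Cbx1* −0.16 and *Uhrf1* −0.12). When a library was left out, r ranged from −0.42 to 0.76 for *Setdb1*, −0.18 to 0.59 for *Dnmt1*, −0.66 to 0.22 for *Uhrf1* and −0.47 to −0.0066 for *Cbx1* (nearest to 0 without WT1). It ranged from −0.58 to −0.19 for *Suv39h1*, −0.77 to −0.42 for *Suv39h2* and −0.84 to −0.44 for *Cbx5*. The ranges were −0.88 to −0.72 for *Cbx3*, −0.97 to −0.83 for *Trim28* and 0.61 to 0.77 for *Dnmt3a*. In deviations from the genotype means *Suv39h1* was at 0.17, *Suv39h2* 0.084, *Dnmt1* −0.39, *Cbx1* 0.62, *Cbx5* 0.46 and *Trim28* 0.61. The satellite ratio of 3.19 became 5.46 without *Gm26870* and ranged from 2.85 to 4.19 when a library was left out. Summing all 13 genes of the family, and levels per kilobase of the longest transcript, were chosen after seeing the data. The scarcest factor had 111 counts in its lowest library. How far depth and the 3 animals per group each limit the intervals was not separated. The cause of these shifts was not tested.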
